A study of Bos taurus with 16 samples.

Results

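The genes described here are 8 genes of blastocoel transport and epithelial junctions, ATP1B1, ATP1B3, AQP3, TJP1, OCLN, CLDN4, CLDN6 and CDH1, chosen by their symbols and found once in each table, out of 38959 genes listed for the first set of blastocysts, 37429 for the second set and 28303 for bovine embryonic stem cells (bESCs). RNA was sequenced from 12 single bovine blastocysts and 4 bESC cultures to ask how LY2955303, an inhibitor of retinoic acid receptor gamma (RARγ), changes gene expression. The first set held 3 blastocysts grown in DMSO, the vehicle, and 3 grown in 10 µM LY2955303 (LY10), which according to the methods was given from the 2-cell stage to the day 8 blastocyst. The second set held 2 blastocysts each of cell2_LY and cell16_LY, whose labels name LY2955303 with the 2-cell or the 16-cell stage, and of LY_DMSO, taken here as their vehicle group. The labels give no concentration for the second set. The bESC libraries were 2 cultures in the stem cell medium tifx (bESC_tifx) and 2 with LY2955303 (bESC_LY), which the methods grow on mouse feeder cells. All samples carried the wild type (WT) genotype and batch 1 in the labels, and no label says whether the embryos of a group came from separate collections, so p-values measure the spread between these libraries. A whole blastocyst mixes trophectoderm, epiblast and hypoblast, and in such bulk RNA fewer cells of a type and less RNA per cell cannot be told apart.

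The blastocoel is the fluid cavity of the blastocyst. It forms when the trophectoderm, the outer epithelium, pumps sodium across its inner membrane with the Na+/K+-ATPase, and water follows through aquaporins. The pump pairs a catalytic alpha subunit with a beta subunit that carries it to the membrane. Tight junctions seal the gaps between trophectoderm cells so that the fluid stays in: claudins and occludin span the membrane, and ZO-1, encoded by TJP1, ties them to actin. E-cadherin, encoded by CDH1, holds cells together at adherens junctions and is made by epiblast as well as trophectoderm. These junctions first form as the embryo compacts, before the cavity opens.

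CDH1 was the member with the clearest difference, and its direction was not the same in the 2 sets. It was 4.13-fold higher in LY10 than in DMSO and 0.473-fold in cell2_LY relative to LY_DMSO, as ratios of mean normalized counts. AQP3 and TJP1 also had opposite signs in these comparisons, with groups that did not overlap in either. The LY10 difference of TJP1 was small, with an unadjusted p of 0.193 by limma. ATP1B3 and OCLN had opposite signs too, but their cell2_LY and LY_DMSO groups overlapped. Besides CDH1, only ATP1B1 passed the threshold of the study, an unadjusted p under 0.05 with an absolute log2 fold change above 1, in any of the 5 comparisons, between cell16_LY and cell2_LY. No member passed an adjusted p of 0.05 in any comparison by limma, where 0.0140% of all genes tested did so in LY10 against DMSO, 0.0138% in cell2_LY against LY_DMSO and 0 in the others. At an unadjusted p under 0.05 there were 2 members in LY10 against DMSO, where 22.9% of all genes were, and 5 in cell2_LY against LY_DMSO, where 24.6% were. There were 3 in cell16_LY against cell2_LY, where 17.9% of all genes were, 0 in cell16_LY against LY_DMSO, with 7.62%, and 0 in the bESCs, with 0.0999%.

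Libraries of the first set had 7905768 to 15137567 reads on genes, those of the second 11336091 to 17343140, and those of the bESCs 29055323 to 31230432. Trophectoderm marker genes summed to 2787 to 10085 FPKM in the 12 blastocysts epiblast markers to 367 to 901 FPKM, and hypoblast markers to 80.4 to 161 FPKM, with GATA6 at 38.2 to 107 FPKM and SOX17 and FOXA2 at or near 0. In the bESCs the epiblast markers summed to 1987 to 2127 FPKM and the trophectoderm markers to 135 to 446 FPKM, with IFNT2 and PAG2 at 0. SOX2 was not listed for the bESCs and TDGF1 not for the blastocysts, so the epiblast sums are not over the same genes. In cell2_LY replicate 1 the library size behind the FPKM exceeded the reads on genes by a factor of 1.23, and in the other libraries the factor was 0.949 to 1.07.

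**Figure D1:**
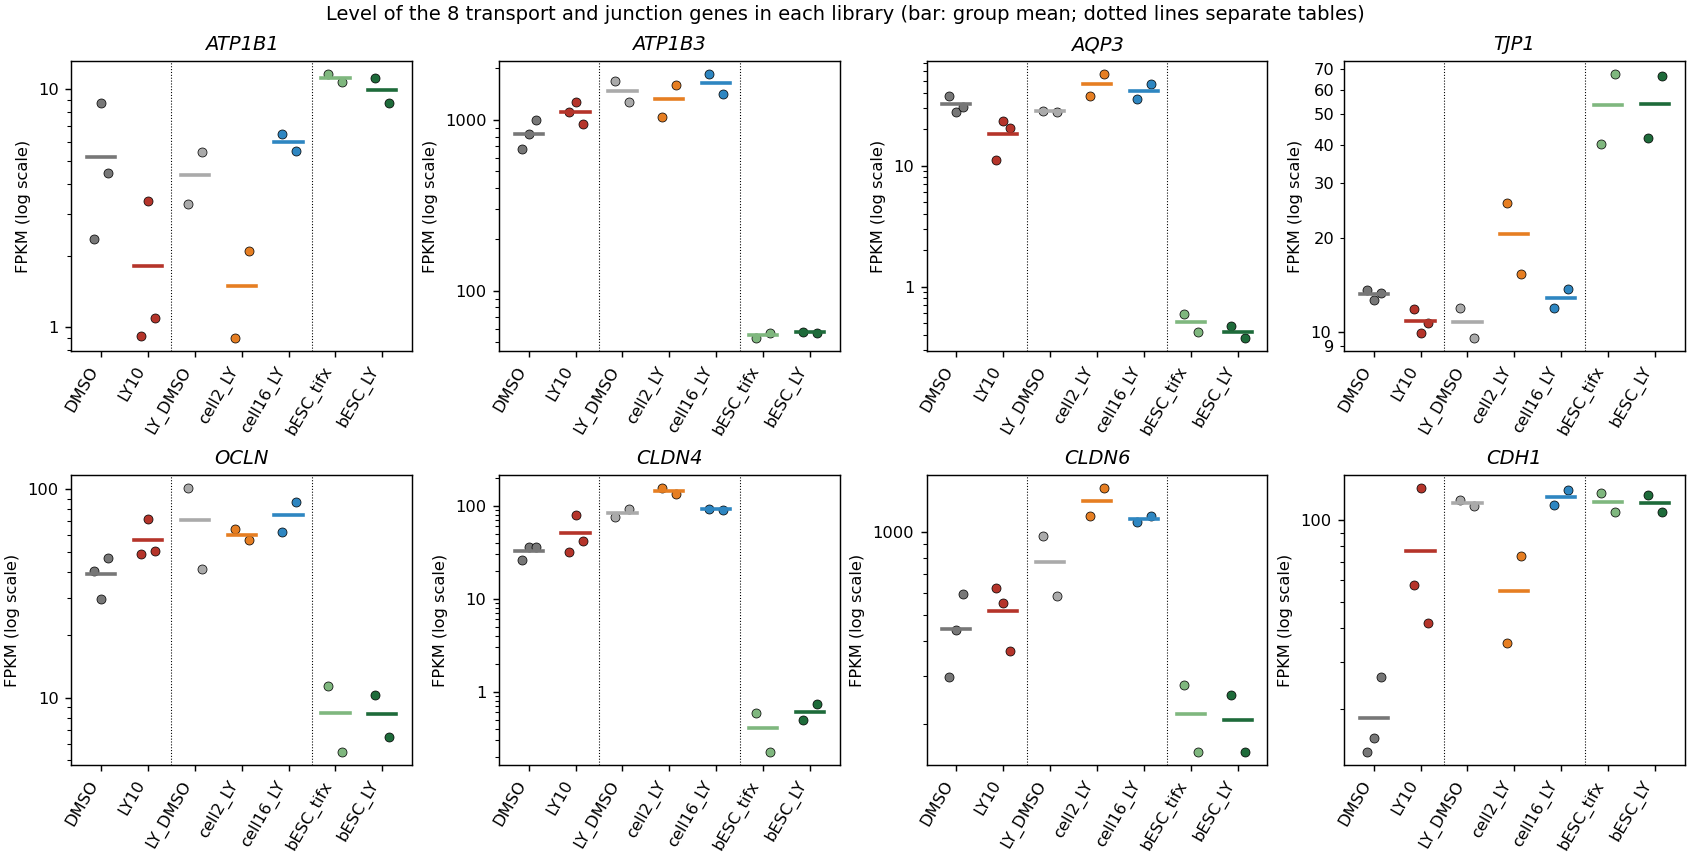
Level of each of the 8 genes in every library, in FPKM on a log axis, by group. Points are single libraries, bars are group means and dotted lines separate the 3 tables, which were normalized separately. ATP1B3 and CLDN6 were at 298 FPKM or above in every blastocyst, CDH1 was lower in the 3 DMSO libraries than in the other 9 blastocysts, and AQP3 and CLDN4 were under 1 FPKM in the bESCs.

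Levels between genes were compared as FPKM, that is, per length. ATP1B3 had the highest mean of the 8 genes in each of the 5 blastocyst groups, followed by CLDN6, and ATP1B1 had the lowest. ATP1B3 ranked between place 39 and place 157 among all genes of a blastocyst library. In LY_DMSO and cell16_LY the order then ran CDH1, CLDN4, OCLN, AQP3 and TJP1. CLDN4 and OCLN overlapped in LY_DMSO. In DMSO the order after CLDN6 was OCLN, CLDN4, AQP3, CDH1 and TJP1, where OCLN, CLDN4 and AQP3 overlapped their neighbours. In LY10 it was CDH1, OCLN, CLDN4, AQP3 and TJP1, with overlap between CDH1 and OCLN, between OCLN and CLDN4 and between AQP3 and TJP1. In cell2_LY ATP1B3 overlapped CLDN6, and CLDN4 came next, followed by OCLN, CDH1 and AQP3, which overlapped in turn. The bESCs had another order, with CLDN6 highest, CDH1 next, and ATP1B3 and TJP1 overlapping behind them.

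ATP1B3 encodes the beta 3 subunit of the pump and lies on chr1:127050089-127096874, minus strand, in ARS-UCD2.0. It had 673, 822 and 1004 FPKM in the 3 DMSO libraries and 1106, 1278 and 942 in LY10. It had 1696 and 1270 FPKM in LY_DMSO, 1044 and 1595 in cell2_LY, and 1850 and 1419 in cell16_LY. The groups overlapped in both sets, and no comparison reached an unadjusted p of 0.05. The log2 difference was 0.42 between LY10 and DMSO (95% interval -0.11 to 0.95), -0.19 between cell2_LY and LY_DMSO (-0.999 to 0.627) and 0.14 between cell16_LY and LY_DMSO (-0.67 to 0.96). The sign in cell2_LY turned with the reads on genes as library size, at 0.05. In the bESCs it was at 53.0 and 56.9 FPKM in bESC_tifx and 57.8 and 56.8 in bESC_LY. Among the beta subunit genes, ATP1B3 made up 98.9% to 99.9% of the summed FPKM in the blastocysts and 79.1% to 84.7% in the bESCs. These ranges are not on the same gene lengths. The model of ATP1B1 has 556 bases for the blastocysts and 1290 for the bESCs, and that of ATP1B3 has 1660 and 1506.

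ATP1B1 encodes the beta 1 subunit and lies on chr16:36759192-36784732, plus strand. It rested on few reads, 4 to 59 per blastocyst. Its gene model in the blastocyst tables is 556 bases long against 1290 in the bESC table, and its span overlaps NME7 on the opposite strand, which had up to 542 reads. Whether counting used strand is not given in the sources used here, so reads of the pair cannot be told apart. ATP1B1 had 2.36, 8.73 and 4.43 FPKM in DMSO and 0.921, 3.40 and 1.09 in LY10. It had 3.28 and 5.45 FPKM in LY_DMSO, 0.902 and 2.09 in cell2_LY, and 6.47 and 5.50 in cell16_LY. The groups of the first set overlapped, both cell2_LY libraries were below both LY_DMSO libraries, and both cell16_LY libraries were above all 4 others. The log2 difference was -1.47 ± 0.79 (SE) between LY10 and DMSO (unadjusted p = 0.0968 and adjusted p = 0.297, limma, n = 3 each) and -1.53 ± 0.71 between cell2_LY and LY_DMSO (unadjusted p = 0.0597 and adjusted p = 0.221, limma, n = 2 each). In cell16_LY ATP1B1 was higher than in cell2_LY by a log2 of 2.02 ± 0.71 (unadjusted p = 0.0199 and adjusted p = 0.215, limma, n = 2 each). This difference missed the threshold without cell2_LY replicate 1, at 1.46, without cell16_LY replicate 1, at 1.90, and without cell16_LY replicate 2, at 2.13. In the bESCs it had 11.5 and 10.7 FPKM in bESC_tifx and 11.1 and 8.71 in bESC_LY.

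AQP3 encodes aquaporin 3, a channel for water and glycerol, and lies on chr8:75194697-75200652, minus strand. It had 37.6, 27.7 and 30.6 FPKM in DMSO and 11.01, 23.3 and 20.3 in LY10. All 3 LY10 libraries were below all 3 DMSO libraries. It had 28.4 and 27.9 FPKM in LY_DMSO, 37.5 and 56.8 in cell2_LY, and 35.6 and 47.3 in cell16_LY. Here all 4 libraries with LY2955303 were above both LY_DMSO libraries. The log2 difference was -0.87 ± 0.32 between LY10 and DMSO (unadjusted p = 0.0258 and adjusted p = 0.164, limma), 0.71 ± 0.30 between cell2_LY and LY_DMSO (unadjusted p = 0.0423 and adjusted p = 0.186) and 0.54 ± 0.30 between cell16_LY and LY_DMSO (unadjusted p = 0.104 and adjusted p = 0.717). The last 2 comparisons share their vehicle libraries. None of them passed the log2 limit of 1, and the opposite signs of the sets were not tested against each other, since the tables were normalized separately. Without LY10 replicate 2, the LY10 difference was -1.08 and passed. In the blastocysts AQP3 made up 57.8% to 94.2% of the summed aquaporin FPKM, with most of the rest in AQP11. In the bESCs AQP3 was at 0.375 to 0.598 FPKM, and AQP11 held the largest share, 36.9% to 74.7%. That is a share of a small sum, 1.69 to 3.18 FPKM, with AQP11 itself at 0.694 to 1.85 FPKM.

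TJP1 lies on chr21:28398722-28658027, minus strand. It had 13.7, 12.7 and 13.3 FPKM in DMSO and 11.9, 9.95 and 10.7 in LY10. The LY10 libraries were all below the DMSO libraries, by a small step, a log2 of -0.29 ± 0.20 (95% interval -0.75 to 0.18, unadjusted p = 0.193 and adjusted p = 0.423, limma). It had 11.97 and 9.57 FPKM in LY_DMSO, 26.0 and 15.3 in cell2_LY, and 11.9 and 13.8 in cell16_LY. Both cell2_LY libraries were above the other 4 of the set, and the log2 difference from LY_DMSO was 0.90 ± 0.31 (unadjusted p = 0.0195 and adjusted p = 0.138, limma). It was 0.26 between cell16_LY and LY_DMSO (adjusted p = 0.878, limma). In the bESCs TJP1 followed the number of the culture, with 40.3 and 41.9 FPKM in the libraries numbered 2 and 67.2 and 66.4 in those numbered 3.

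OCLN, which encodes occludin, lies on chr20:10229399-10276416, minus strand. It had 40.4, 29.8 and 46.9 FPKM in DMSO and 49.1, 72.0 and 50.3 in LY10. The LY10 libraries were all higher, with the lowest of them 49.1 FPKM against 46.9 FPKM in the highest DMSO library, and the log2 difference was 0.55 ± 0.26 (unadjusted p = 0.0620 and adjusted p = 0.243, limma). It had 101 and 41.6 FPKM in LY_DMSO, 64.2 and 56.8 in cell2_LY, and 62.6 and 87.2 in cell16_LY. Every group of the second set lay within the span of the LY_DMSO pair. In the bESCs OCLN was at 11.4 and 10.3 FPKM in the libraries numbered 2 and 5.47 and 6.45 in those numbered 3.

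CLDN4 lies on chr25:33477754-33479301 and CLDN6 on chr25:2433098-2436408, both on the minus strand. Part of the CLDN6 span overlaps TNFRSF12A on the opposite strand. CLDN4 had 26.3, 35.7 and 36.2 FPKM in DMSO and 31.8, 78.9 and 42.2 in LY10, which overlapped. It had 75.6 and 92.6 FPKM in LY_DMSO, 154 and 135 in cell2_LY, and 92.6 and 91.2 in cell16_LY. Both cell2_LY libraries were above the other 4, by a log2 of 0.78 ± 0.25 over LY_DMSO (unadjusted p = 0.0120 and adjusted p = 0.114, limma), and the log2 difference of cell16_LY from cell2_LY was -0.65 (unadjusted p = 0.0285 and adjusted p = 0.239). CLDN6 had 298, 442 and 596 FPKM in DMSO and 622, 551 and 370 in LY10, and 967 and 587 in LY_DMSO, 1139 and 1437 in cell2_LY, and 1084 and 1140 in cell16_LY. The first set overlapped, while all 4 libraries with LY2955303 in the second set were above both LY_DMSO libraries. The log2 difference of CLDN6 was 0.76 ± 0.33 in cell2_LY (unadjusted p = 0.0479 and adjusted p = 0.198, limma) and 0.56 ± 0.33 in cell16_LY (unadjusted p = 0.126 and adjusted p = 0.735).

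CLDN6 made up 78.1% to 88.6% of the summed claudin FPKM in the blastocysts, and CLDN4 4.38% to 12.5%. In the bESCs CLDN6 had 277 and 256 FPKM in the libraries numbered 2 and 159 and 158 in those numbered 3, which was 56.5% to 67.3% of the claudin sum. CLDN4 was at 0.223 to 0.729 FPKM there, and CLDN9, a close paralog of CLDN6, held 12.1% to 24.1%. How reads that match both genes were counted is not given in the sources used here.

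**Figure D2:**
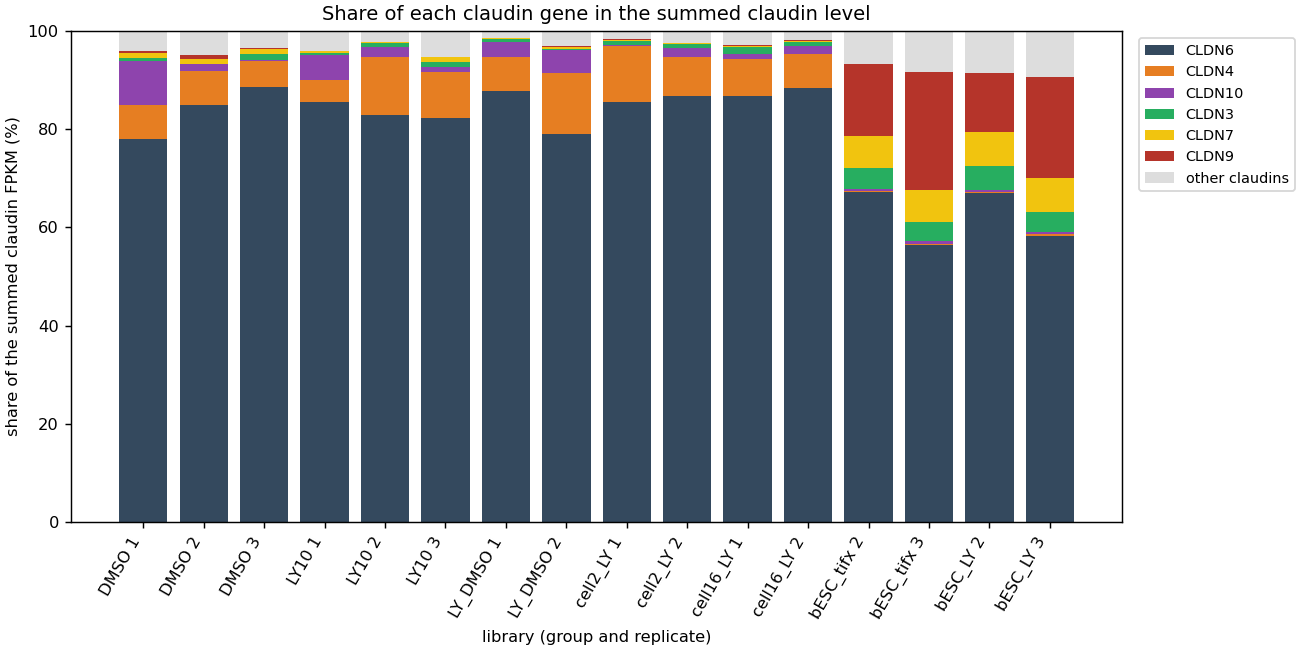
Share of each claudin gene in the summed claudin FPKM of every library, in percent, as stacked bars by group and replicate. CLDN6 takes 78.1% or more in each blastocyst, while in the bESC libraries it takes 56.5% to 67.3% and CLDN9 12.1% to 24.1%.

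CDH1 lies on chr18:36046775-36117670, plus strand, with a gene model of 2642 bases in the blastocyst tables and 4457 in the bESC table, so its FPKM is not on the same length in these tables. It had 13.9, 15.6 and 26.4 FPKM in DMSO and 57.7, 131 and 41.7 in LY10. The lowest LY10 library was above the highest DMSO library. CDH1 rose in LY10 by a log2 of 1.93 ± 0.43 (95% interval 0.95 to 2.90, unadjusted p = 0.00165 and adjusted p = 0.0786, limma, n = 3 each), a larger value than in 98.4% of all genes tested. With each library left out in turn, the difference ranged from 1.45 to 2.28 and stayed past the threshold.

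In the second set the vehicle libraries did not have the low CDH1 level of DMSO. CDH1 had 118 and 112 FPKM in LY_DMSO, 35.3 and 73.9 in cell2_LY, and 114 and 129 in cell16_LY. Both cell2_LY libraries were below the other 4. The log2 difference of CDH1 was -1.18 ± 0.35 in cell2_LY against LY_DMSO, a fall past the threshold (95% interval -1.98 to -0.38, unadjusted p = 0.00920 and adjusted p = 0.105, limma, n = 2 each), and it was higher in cell16_LY than in cell2_LY by 1.25 ± 0.35 (unadjusted p = 0.00669 and adjusted p = 0.193). The size of both rests on cell2_LY replicate 1: without it they were -0.64 and 0.72 and under the log2 limit. With the reads on genes as library size the first was -0.94, also under the limit. Between cell16_LY and LY_DMSO the difference was 0.07 (95% interval -0.73 to 0.87, adjusted p = 0.980, limma). Across the 12 blastocysts the genes whose level ran closest to that of CDH1 within each table were DDOST and LOC615989, at a root-mean-square log2 difference of 0.283 and 0.292, against 0.915 for CDH1 around its own table means. In the bESCs CDH1 had 126 and 108 FPKM in bESC_tifx and 123 and 107 in bESC_LY.

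Some markers of the embryo's cell types also differed between these groups. Past the threshold were 14.7% of all genes tested in LY10 against DMSO, 17.0% in cell2_LY and 5.22% in cell16_LY against LY_DMSO. The trophectoderm markers summed to 2787 to 7229 FPKM in DMSO and 4035 to 10085 in LY10, with overlap, and none of them passed in LY10. In the first set the epiblast markers summed to 391.6 to 546 FPKM in DMSO and 585 to 901 in LY10, with no overlap. POU5F1 was higher in LY10 by a log2 of 1.23 (unadjusted p = 0.00180, limma). It held 164 to 246 FPKM of the sum in DMSO and 328 to 611 in LY10. No other epiblast marker passed the threshold, with NANOG, SOX2 and PRDM14 higher and LIN28A, LIN28B and DPPA3 lower in LY10. DPPA3, the other large part of the sum, had 210 to 260 FPKM in DMSO and 79.6 to 221 in LY10. Of the hypoblast markers, PDGFRA was higher there by 3.74 and HNF4A by 3.31, and LAMB1 differed by -1.07, all past the threshold, while the hypoblast sum was 96.0 to 161 FPKM in DMSO and 91.3 to 142 in LY10. The fibroblast list summed to 25.3 to 92.0 FPKM in DMSO and 6.57 to 12.2 in LY10. In the second set the epiblast sum was 523 to 665 FPKM in LY_DMSO, 367 to 498 in cell2_LY and 375 to 461 in cell16_LY, and the trophectoderm sum was 4071 to 5152, 5645 to 8220 and 5851 to 6166. Most of the epiblast sum was POU5F1, at 240 to 395, 293 to 364 and 242 to 291 FPKM, and DPPA3, at 197 to 230, 59.4 to 83.8 and 91.0 to 134. Most of the trophectoderm sum was KRT8, at 2753 to 3111, 3029 to 4391 and 3491 to 3627 FPKM, and KRT18, at 1128 to 1569, 1828 to 2888 and 1311 to 1464. Neither keratin gene passed the threshold against LY_DMSO. In cell2_LY CDX2, GATA2 and KRT19 were higher than in LY_DMSO by 2.78, 1.99 and 1.85, and DPPA3 and PDGFRA differed by -1.59 and -2.01. In cell16_LY KRT19 and IFNT2 of the trophectoderm list and CYP11A1 of the cumulus list were higher by 2.31, 3.36 and 2.33. All 10 trophectoderm markers, 7 of 8 epiblast markers and all 8 hypoblast markers were listed in each table. The epiblast marker not listed was TDGF1 in the blastocysts and SOX2 in the bESCs. The part of the markers in the differences of CDH1 and the other members was not tested.

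**Figure D3:**
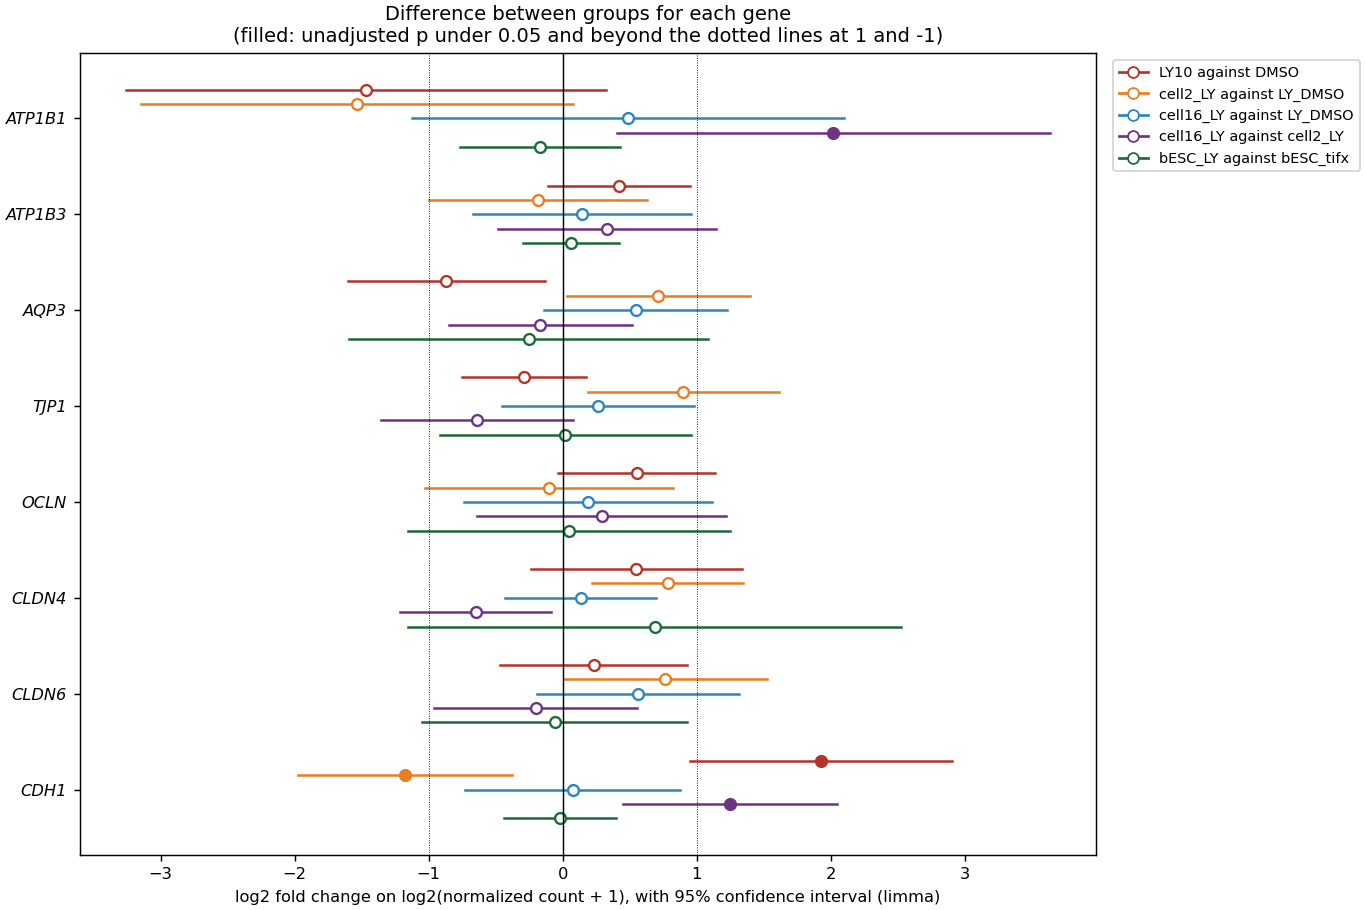
Log2 difference of each gene in the 5 comparisons, with 95% confidence intervals from limma. Filled points passed an unadjusted p under 0.05 and a log2 difference beyond 1 or -1, marked by dotted lines. These were CDH1 at 1.93 in LY10, -1.18 in cell2_LY and 1.25 between cell16_LY and cell2_LY, and ATP1B1 at 2.02 in the last.

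Set side by side, 1 of the 8 genes passed the threshold in LY10 against DMSO, where 14.7% of the 14249 genes tested did so. It was 1 of 8 in cell2_LY against LY_DMSO, where the share over all genes was 17.0%. None of the 8 passed in cell16_LY against LY_DMSO, where the share was 5.22%, and 2 of 8 passed in cell16_LY against cell2_LY, where it was 11.3%. In the bESCs none passed and the share was 0.0749%. These shares do not set the members apart from other genes. Without LY10 replicate 2 the count was 2 in the first comparison. In cell2_LY against LY_DMSO it was 3 without cell2_LY replicate 2 or without LY_DMSO replicate 1, and in cell16_LY against cell2_LY it was 0 without cell2_LY replicate 1 and 1 without either cell16_LY library. With quantile normalization 4 genes passed in cell2_LY, ATP1B1, TJP1, CLDN4 and CLDN6, all in their direction above, and CDH1 did not, at -0.80. Over all genes 2238 of 14529 passed at that setting. The share over all genes was not counted with single libraries left out. In LY10 against DMSO 4 of the 8 genes had groups without overlap, as did 28.1% of all genes, and so had 6 of the 8 in cell2_LY against LY_DMSO, against 53.7%. This held for 3 of 8 in cell16_LY against LY_DMSO, against 42.9%, and for 4 of 8 in cell16_LY against cell2_LY, against 54.5%. In the bESCs it held for none, against 14.2%. All 8 log2 differences were above 0 in cell16_LY against LY_DMSO, from 0.07 to 0.56, where 49.5% of all genes were above 0, and 4 of them, ATP1B3, OCLN, CLDN4 and CDH1, turned negative with single libraries left out. The median log2 difference of the 8 genes was 0.33 in LY10, 0.31 in cell2_LY and 0.23 in cell16_LY, and that of all genes tested was -0.05, 0.00 and -0.01.

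In the bESCs the largest log2 difference was 0.69 for CLDN4 (95% interval -1.15 to 2.52), which had 11 to 36 reads per library there, and the narrowest interval was that of ATP1B3, -0.29 to 0.42. The unadjusted p of the 8 genes lay between 0.371 and 0.959, and the groups overlapped for all of them.

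Other genes of transport, junctions, polarity and epithelial transcription were listed beside the 8 genes, 153 in all. In LY10 against DMSO 94 of them were tested, and 6 were higher and 8 lower past the threshold, which is 14.9% against the 14.7% of all genes. None passed adjustment, where 2 of all genes did. PRKCZ, an atypical protein kinase C of the apical polarity complex, rose from 7.55 to 11.5 FPKM in DMSO to 25.7 to 32.2 in LY10, a log2 difference of 1.66 (unadjusted p = 0.000121 and adjusted p = 0.0711, limma). SCNN1A, a subunit of the epithelial sodium channel, rose by 1.76, the chloride channel gene CLCN2 by 1.04, and TJP3, which encodes ZO-3, by 1.07. Lower in LY10 were the sodium, potassium and chloride cotransporter SLC12A2, at -1.73, NECTIN3, at -1.18, and the transcription factor ELF3, at -1.53. The claudin gene CLDN9, the connexin 43 gene GJA1, the desmosomal cadherin DSC1 and the transcription factor ZEB1 were also called lower. They had 2 to 4, 2 to 25, 1 to 6 and 0 to 24 reads per LY10 library. Their mean normalized counts were 3.10, 9.52, 3.49 and 8.82 in LY10 against 47.9, 118, 31.5 and 48.6 in DMSO. These genes passed the minimum mean of 10 through DMSO alone, so no fold is given for them. TWIST1, which like ZEB1 represses epithelial genes in other tissues, was also called lower, but it had 0, 2 and 0 reads in LY10 against 45, 23 and 5 in DMSO and passed the minimum through DMSO alone, so no fold is given. The count of 14 genes rested in part on single libraries: it was 26 without DMSO replicate 3, 9 without DMSO replicate 2 and 8 without LY10 replicate 1. Over all genes, 42.2% of the calls in this comparison were higher, and 55.0% under quantile normalization.

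In cell2_LY against LY_DMSO 91 of the listed genes were tested, and 23 were higher and 2 lower, which is 27.5% against the 17.0% of all genes. The median log2 difference was 0.37 against 0.00 over all genes. The lists were chosen with earlier results of these data known, so in no comparison can these shares or medians show an excess. Among the tight junction genes, CLDN23, CLDN8, CGN, which encodes cingulin, and TJP3 rose by 2.26, 2.33, 1.12 and 1.02. The value of CLDN8 is imprecise, with 2.66 and 18.3 FPKM in cell2_LY against 1.07 and 1.73 in LY_DMSO. Among the desmosome genes, DSC2, DSP and PKP3 rose by 1.76, 1.14 and 1.69. PKP1 was also called higher, but it had 1 read in each LY_DMSO library against 16 and 28 in cell2_LY and passed the minimum through cell2_LY alone, so no fold is given. Of the adherens junction genes, JUP and ACTN4 rose by 1.07 and 1.08. CDH1, the cadherin of the latter junction, fell in the same libraries. ELF3 and CDX2, transcription factors of epithelium and trophectoderm, rose by 2.68 and 2.78, GRHL3 by 1.64 and OVOL1 by 2.07. SCRIB, LLGL1 and LLGL2 of the basolateral polarity complex rose by 2.48, 1.03 and 1.39, while PRKCI, another atypical protein kinase C, fell by 1.25. Of the transport genes, SLC9A3, a sodium and proton exchanger, SCNN1A, SLC12A7 and FXYD4, a modulator of the pump, rose by 2.54, 1.51, 2.04 and 1.26. None of these passed adjustment, with adjusted p between 0.0711 and 0.187 for the genes named. Without cell2_LY replicate 1, or without LY_DMSO replicate 2, the count fell to 16. With the reads on genes as library size the median of all genes was 0.24 in this comparison, and 73.2% of all calls were higher against 51.1% at the authors' library size.

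In cell16_LY against LY_DMSO, which shares the LY_DMSO libraries, 5 of the 91 listed genes were higher and 3 lower, 8.79% against 5.22% of all genes. DSC2 had a log2 difference of 1.78, CLDN23 of 1.78, CLDN3 of 2.13, GRHL3 of 1.32 and OVOL1 of 1.38, and PRKCI of -1.02, ACTN1 of -1.001 and GJA1 of -3.42, the last on 2 and 9 reads in cell16_LY against 27 and 155 in LY_DMSO. The count of 8 was 15 without LY_DMSO replicate 1, 3 without LY_DMSO replicate 2 and 5 without cell16_LY replicate 1. In cell16_LY against cell2_LY none of the 91 was higher and 12 were lower, 13.2% against 11.3% of all genes. They were SLC12A7, ELF3, CDX2, ESRP2, DSP, PKP3, ACTN4, CGN, TJP3, AFDN, LLGL1 and SCRIB, from -2.40 for SCRIB to -1.01 for LLGL1. Without cell2_LY replicate 1 the count was 7, and with the reads on genes as library size it was 21, with 25.0% of all calls higher against 49.1% and a median of all genes of -0.18. In the bESCs 115 of the listed genes were tested and none passed the threshold, while 1 did without bESC_LY replicate 2.

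**Figure D4:**
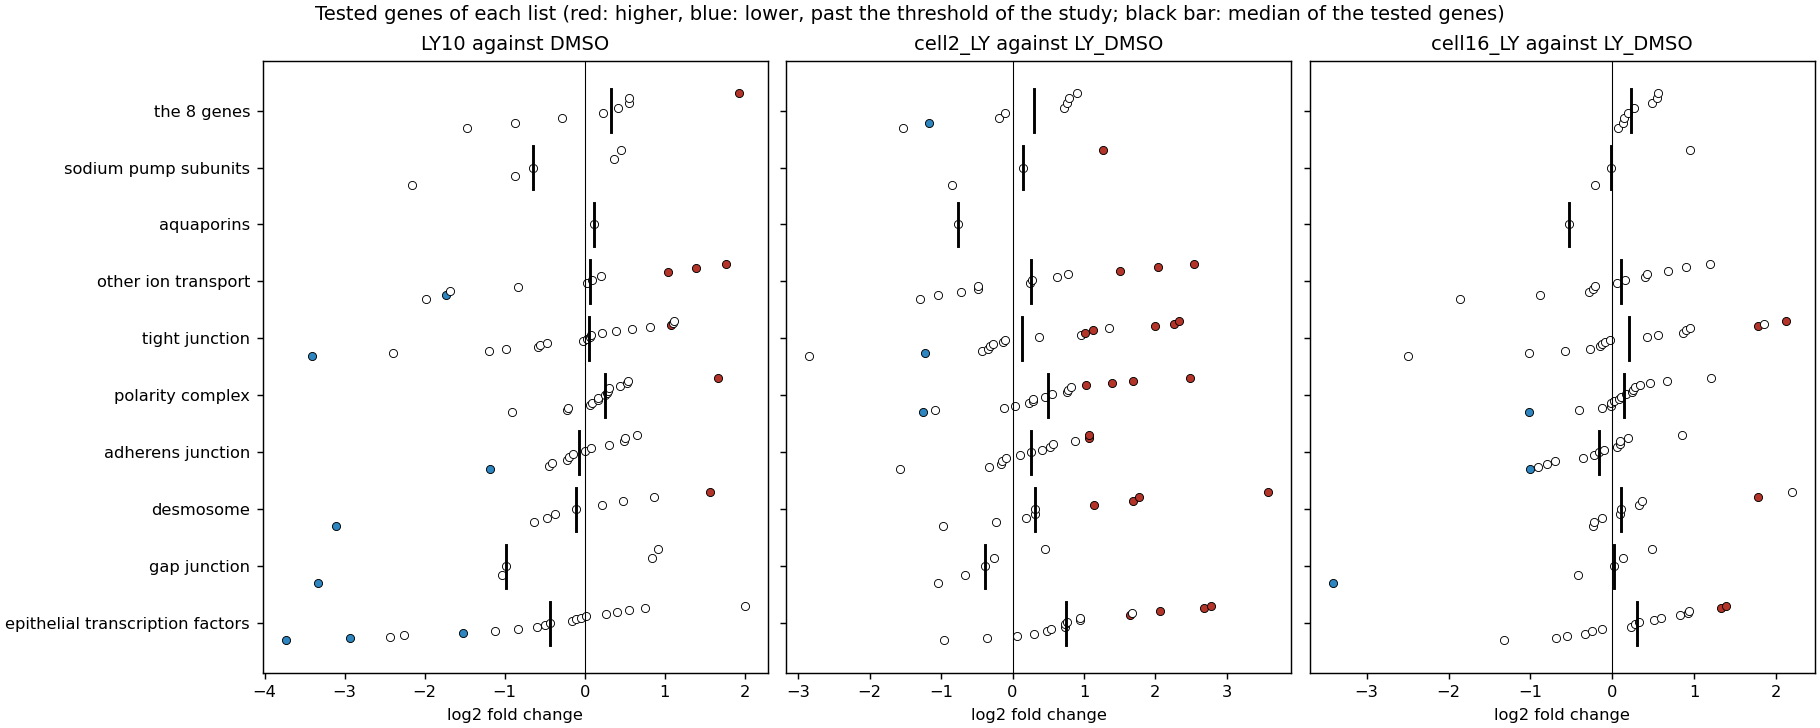
Log2 difference of every tested gene of the 9 lists and of the 8 genes in 3 comparisons, 1 point per gene, with the median of each list as a black bar. Red and blue points were higher or lower past the threshold; there are 6 and 8 outside the 8 genes in LY10, 23 and 2 in cell2_LY, and 5 and 3 in cell16_LY.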

How the data were processed

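The authors deposited 3 tables of FPKM, 1 for each blastocyst set and 1 for the bESCs, beside fold changes and p-values of their own DESeq2 comparisons, which were not used. The submitters' processing notes name HISAT2 2.0.5, featureCounts 1.5.0-p3, StringTie 1.3.3b and DESeq2 1.20.0, while the methods also name STAR. Blastocyst RNA was amplified by SMART-seq. FPKM multiplied by gene length gave whole reads for 100% of the values within 0.02 reads, and hence the reads per gene and the library size used by the authors. The normalized count is the reads brought to each table's geometric mean of library sizes (10651692, 15246235 and 30547774). Genes with a mean of at least 10 were tested on log2(normalized count + 1) with limma 3.58.1 in R 4.3.3 (lmFit, eBayes with a trend); log2 fold changes are on that scale and are understated for low genes, while values written as fold are ratios of mean normalized counts. The 3 groups of the second set shared 1 fit. P-values were adjusted by Benjamini-Hochberg over all genes tested. A DESeq2 comparison as in the methods was not run, because the values are FPKM. Of listed genes, at most 4 per list and comparison were named, those with the smallest p among calls whose groups did not overlap, and 1 further gene that the rule names is not reported here. For each member the 2 genes closest to it over the blastocysts were found, and those of CDH1 are given. The members and the lists were chosen with earlier results of these data known. The fit was tested on simulated data with 200 changed genes and a fixed spread beyond counting noise, the same for all genes. That spread was not taken from these libraries, so the simulation does not show how the fit behaves on them. For the blastocysts, 98.8% of the gene positions that could be looked up in RefSeq by Gene ID matched its ARS-UCD2.0 annotation, though not those of ATP1B1 and CDH1. Python 3.11.15, pandas 2.3.3 and matplotlib 3.10.9 were used. Alternatives were a pseudocount of 0.5 or 5, a stricter filter at 50 or none, reads on genes as library size, quantile normalization, log2(FPKM + 1), voom weights, the replicate number as a block, a fit of only 2 groups, and each library left out.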

Additional observations from a re-analysis of the deposited data

Results flagged for a closer look

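The responses of cell16_LY and cell2_LY, which share a vehicle group, differed by the limma test of the pair itself for 2 of the 8 genes at an unadjusted p under 0.05 with a log2 difference beyond 1, and for CLDN4 at an unadjusted p under 0.05 alone. ATP1B1 was higher in cell16_LY by a log2 of 2.02 and CDH1 by 1.25.

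For 3 genes the groups with LY2955303 and their vehicle did not overlap and the direction was opposite in the 2 sets of blastocysts. Over all genes tested, groups did not overlap for 28.1% in LY10 against DMSO, 53.7% in cell2_LY against LY_DMSO and 42.9% in cell16_LY against LY_DMSO. How many of all genes did so in opposite directions was not counted. CDH1 differed by 1.93 on the log2 scale in LY10 and by -1.18 in cell2_LY. AQP3 differed by -0.87 in LY10, 0.71 in cell2_LY and 0.54 in cell16_LY. TJP1 differed by -0.29 in LY10 (unadjusted p = 0.193, limma) and by 0.90 in cell2_LY. These oppositions between sets were not tested, and the set, the vehicle label and the unstated concentration of the second set cannot be told apart.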

How the results depend on the processing

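Of 601 log2 differences of the 8 genes recomputed under the alternatives, 554 kept their direction and their side of the threshold, 25 changed sign, 8 fell short of the threshold and 14 came to pass it. CDH1 in LY10 stayed past the threshold under all 15. The sign turned in cell2_LY with the reads on genes as library size for ATP1B3 (0.046) and OCLN (0.13), and with quantile normalization for OCLN (0.32, and -0.045 in cell16_LY against cell2_LY). CDH1 missed the log2 limit in cell2_LY with the reads on genes (-0.94) and quantile normalization (-0.80), and in cell16_LY against cell2_LY with the latter (0.99). In cell2_LY the count of the 8 genes was 2 with the reads on genes or log2(FPKM + 1) and 4 with quantile normalization. Over all genes it was 2516 of 14561, 1628 of 13194 and 2238 of 14529 at these settings. In cell16_LY against cell2_LY the count of the 8 genes was 1 with a mean of at least 50 or quantile normalization. Over all genes it was 1319 of 10732 and 1576 of 14529. The count of listed genes in LY10 was 9 with a mean of at least 50 or log2(FPKM + 1). In cell16_LY it was 13 with no filter and 5 with log2(FPKM + 1), and in cell16_LY against cell2_LY it was 21 with the reads on genes and 19 with quantile normalization.

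With each library left out, the count of the 8 genes ranged from 1 to 2 in LY10, 1 to 3 in cell2_LY and 0 to 3 in cell16_LY against cell2_LY, and the count of listed genes from 8 to 26, 16 to 33, 3 to 15 (cell16_LY), 7 to 17 and 0 to 1 (bESCs). The range of log2 differences included both signs for CLDN6 in LY10 (-0.031 to 0.47), for ATP1B3 (-0.49 to 0.12) and OCLN (-0.74 to 0.54) in cell2_LY, for ATP1B3 (-0.066 to 0.35), OCLN (-0.45 to 0.83), CLDN4 (-0.011 to 0.28) and CDH1 (-0.020 to 0.17) in cell16_LY, for AQP3 in cell16_LY against cell2_LY (-0.47 to 0.13), and in the bESCs for ATP1B1 (-0.35 to 0.0015), TJP1 (-0.35 to 0.39), OCLN (-0.48 to 0.57), CLDN6 (-0.46 to 0.34) and CDH1 (-0.13 to 0.10). A library alone in its group was assumed to vary like the others.

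The replicate number was not used to pair libraries: deviations of same-numbered libraries correlated at -0.117, 0.168 and -0.0997 in the first set and at -0.232 to 0.121 in the second, and at 0.789 in the bESCs, which have only 2 pairs. With the replicate block no call of the 8 genes changed, the bESC count of listed genes was 3, and that over all genes was 146 against 12. With 2 or 3 libraries a group the intervals stayed wide, and ATP1B1 in addition had few reads. The causes of the changes above were not tested.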
